A study of Mus musculus with 8 samples.

Results

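The Hox cluster genes were followed across 4 genotypes of mouse embryonic stem cells. Members were all probe sets whose only platform symbol is Hox followed by a cluster letter from a to d and a paralog number. This gave 37 of the 22626 probe sets that are not array controls, and they read 31 genes. The Hoxa cluster on chromosome 6 had 12 probe sets for 9 genes, Hoxb on chromosome 11 had 10 for 9 genes, Hoxc on chromosome 15 had 8 for 6 genes, and Hoxd on chromosome 2 had 7 for 7 genes. RefSeq lists 39 Hox genes in these clusters. The other 8 were not analysed here.

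Hox genes encode homeodomain transcription factors that give cells along the head to tail axis their position, and genes of the same paralog number in different clusters are close relatives. Within a cluster the genes lie in the order in which they are switched on, with low numbers active early and toward the head and high numbers late and toward the tail. In undifferentiated embryonic stem cells the clusters are known to be covered by Polycomb repressive complex 2 (PRC2), which methylates histone H3 at lysine 27. Ezh2 is a catalytic subunit of this complex, Eed a core subunit that binds the methylated histone tail, and Jarid2 an accessory subunit that helps to bring the complex to its targets.

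The wild-type cells were CJ7 embryonic stem cells, and the mutants were labelled Ezh2-/-, Eed-/- and Jarid2-/-, with 2 arrays for each of the 4 groups and 8 in all. Every sample has cj7 as its strain label. All cells were kept in serum with leukemia inhibitory factor, a cytokine that holds stem cells undifferentiated, and none had a further treatment. No source used here tells if both arrays of a genotype were made from 1 culture, or how many clones stand for a mutant, so p-values measure only the spread between these arrays, which may be technical, and the genotype cannot be told apart from the cell line that carries it.

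Total RNA was hybridized as biotin-labelled cRNA to Affymetrix Mouse430A_2 arrays, and values are signal intensities on a linear scale with array medians between 322.9 and 351.5. The Ezh2 probe set fell from a mean of 4800 in wild type to 696 in Ezh2-/- cells, and the brighter Eed probe set from 10300 to 3610 in Eed-/- cells. None of the 3 Jarid2 probe sets was lower in the arrays labelled Jarid2-/-, and one had a mean of 7950 in wild type and 9470 there. The sources do not say which part of Jarid2 is missing, so these probe sets cannot check that label, and the group is called the Jarid2-labelled arrays. All 21 pluripotency markers were above the array controls in every group, but levels differed. Against wild type, limma called 10 higher and 3 lower in Ezh2-/-, 5 and 1 in Eed-/-, and 7 and 3 in the Jarid2-labelled arrays. Of all probe sets, 9.41% and 17.2%, 7.7% and 10.9%, and 6.08% and 13.7% were called higher and lower. Zfp42 had a mean of 18400 in wild type, 3850 in Ezh2-/-, 18000 in Eed-/- and 3500 in the Jarid2-labelled arrays.

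The starts of 4 Hox genes that rose together in Eed-/- cells and of 1 that did not, Hoxa7, are shown because CG-rich starts are known as the usual places of PRC2 in stem cells. Each window is from RefSeq on GRCm38.p6 and runs from 250 bases before the annotated start to 50 after it, with every CG in capitals. Hoxa10 (1 of 2 annotated starts) is at chr6:52240805-52241104, Hoxa11 at chr6:52245761-52246060 and Hoxa7 at chr6:52218524-52218823, all on the minus strand. Hoxd8 is at chr2:74704365-74704664 and Hoxd9 at chr2:74697513-74697812, both on the plus strand.
Hoxa10: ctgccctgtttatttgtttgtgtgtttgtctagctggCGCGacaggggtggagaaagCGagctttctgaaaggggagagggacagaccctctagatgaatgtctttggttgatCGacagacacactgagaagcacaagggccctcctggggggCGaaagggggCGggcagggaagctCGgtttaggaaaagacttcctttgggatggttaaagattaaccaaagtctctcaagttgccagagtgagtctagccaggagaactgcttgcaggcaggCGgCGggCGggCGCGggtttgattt
Hoxa11: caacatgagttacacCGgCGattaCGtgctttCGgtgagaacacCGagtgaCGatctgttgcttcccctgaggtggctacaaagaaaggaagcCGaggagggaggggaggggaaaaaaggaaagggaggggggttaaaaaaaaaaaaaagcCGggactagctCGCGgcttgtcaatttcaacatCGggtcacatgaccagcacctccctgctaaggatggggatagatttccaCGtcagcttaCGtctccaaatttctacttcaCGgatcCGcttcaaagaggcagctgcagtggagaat
Hoxd8: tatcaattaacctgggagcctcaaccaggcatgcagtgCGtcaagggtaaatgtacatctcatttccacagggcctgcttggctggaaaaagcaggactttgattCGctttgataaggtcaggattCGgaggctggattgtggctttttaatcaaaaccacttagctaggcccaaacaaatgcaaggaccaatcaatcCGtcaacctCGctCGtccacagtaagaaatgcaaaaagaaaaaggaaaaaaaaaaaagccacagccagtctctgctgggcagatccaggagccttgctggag
Hoxd9: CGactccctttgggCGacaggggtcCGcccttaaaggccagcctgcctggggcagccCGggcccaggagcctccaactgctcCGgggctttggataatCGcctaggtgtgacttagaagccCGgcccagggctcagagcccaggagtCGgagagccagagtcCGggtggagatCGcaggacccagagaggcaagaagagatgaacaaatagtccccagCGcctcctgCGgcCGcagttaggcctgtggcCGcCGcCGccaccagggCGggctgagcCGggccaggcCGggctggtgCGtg
Hoxa7: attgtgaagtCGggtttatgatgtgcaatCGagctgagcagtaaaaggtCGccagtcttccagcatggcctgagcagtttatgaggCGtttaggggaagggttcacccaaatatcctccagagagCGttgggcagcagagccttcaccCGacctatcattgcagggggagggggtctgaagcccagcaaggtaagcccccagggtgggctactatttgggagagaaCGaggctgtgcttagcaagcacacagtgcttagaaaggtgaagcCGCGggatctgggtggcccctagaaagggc

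These 5 windows held 12, 15, 6, 20 and 9 CG in the order printed. Of all 32851 promoter windows of the same length, 39.6%, 34.6%, 56.4%, 26.5% and 45.8% held at least as many. Windows were given for 18 member genes, 20 windows in all. The 12 windows of genes higher in Eed-/- cells held a median of 17.5 CG, with a range from 4 to 29, and the 7 windows of genes with no call held a median of 14, with a range from 9 to 45. The median over all windows was 7. The ranges of risers and of genes with no call overlapped. The letters TATAAA, searched on both strands, occurred in 1 of the 12, in 1 of the 7 and in 13.6% of all windows.

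Signals of the members were low. A probe set was taken as detected in a group when both arrays read above the highest bacterial tryptophan control (AFFX-TrpnX) of the same array. Over the 8 arrays these controls read between 23.76 and 147.91. The highest read 116.84 and 117.15 in wild type, 147.32 and 110.71 in Ezh2-/-, 135.27 and 120.92 in Eed-/-, and 145.3 and 147.91 in the Jarid2-labelled arrays. The cutoff thus differed between groups, and counts of detected probe sets depend on it. Hoxa5 passed it in wild type (127 and 138) but not in Ezh2-/- (141 and 129). No share of detected probe sets was taken over the whole array. By this measure 13 of the 37 Hox probe sets were detected in wild type, 10 in Ezh2-/-, 19 in Eed-/- and 9 in the Jarid2-labelled arrays. In Hoxa the number was 4 in wild type and 7 in Eed-/- cells, and in Hoxd it was 0 and 3. In Hoxb it was 5 and 4, and in Hoxc 4 and 5. Over all groups 20 probe sets were detected in at least 1, and 17 in none. In RNA from a whole culture, a few cells with much of a transcript and many cells with little of it cannot be told apart.

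**Figure D1:**
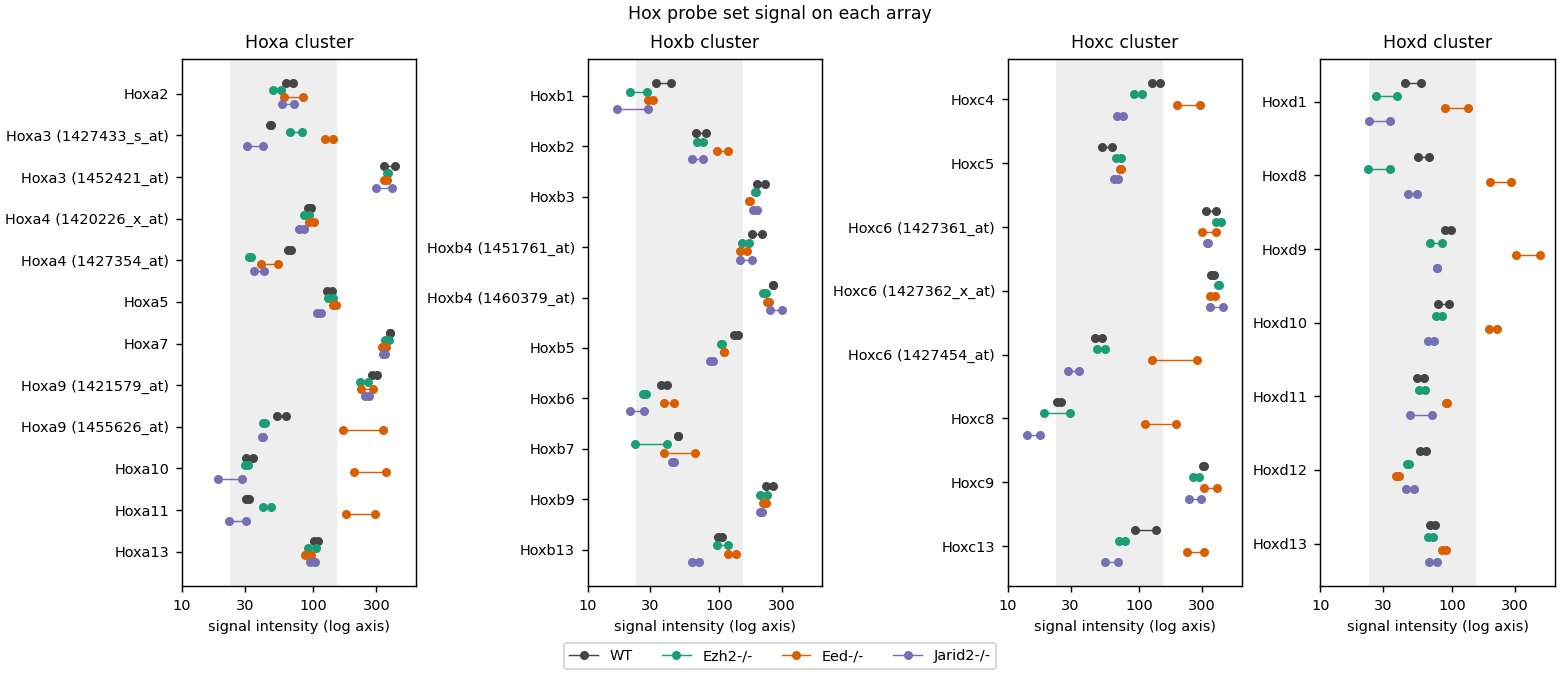
Signal intensity (log axis) of each Hox probe set on each of the 8 arrays, by cluster, with the 2 arrays of a group joined by a line and the range of the tryptophan controls shaded. Eed-/- arrays stand to the right of the others for Hoxa9 (1455626_at), Hoxa10, Hoxa11, Hoxc4, Hoxc8 and Hoxd8 to Hoxd10, while the groups lie close together for most Hoxb probe sets.

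Hox genes rose in Eed-/- cells. Of the 37 probe sets, 14 were higher in Eed-/- than in wild-type cells, 1 was lower and 22 had no call (limma, adjusted p under 0.05 over all probe sets). That is 37.8% higher, where 7.7% of all 22626 probe sets were higher, and 2.7% lower, where 10.9% of all were lower. The median log2 difference was 0.12 over the Hox probe sets and -0.06 over all probe sets. The risers were 4 of 12 in Hoxa, 1 of 10 in Hoxb, 4 of 8 in Hoxc and 5 of 7 in Hoxd. Both Eed-/- arrays read above all 6 other arrays for 16 of the 37, against 8.68% of all probe sets. These 16 were the 14 risers together with Hoxc9 and Hoxd13. Differences are given as log2 of the signal plus 16, a scale that shrinks the change of dim probe sets. Where the dimmer group was not above the controls, a fold is also given as a bound against the lowest signal that counts as detected. Of the 14 risers, 8 were detected in Eed-/- cells and 1 in wild type. A bound is also given for some risers that were not detected in Eed-/- cells.

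In the Hoxa cluster the rise lay in the run from Hoxa9 to Hoxa11. Hoxa10, which patterns the lumbar vertebrae and the uterus, read 30.5 and 34.8 in wild type, 203 and 358 in Eed-/-, 32.0 and 30.3 in Ezh2-/-, and 18.7 and 28.8 in the Jarid2-labelled arrays. The 2 Eed-/- arrays stood far above the other 6, of which the Jarid2-labelled arrays were the lowest, while wild type and Ezh2-/- overlapped. The log2 difference from wild type was 2.56 (SE 0.23, limma adjusted p = 0.00027), the largest of the 37, and at least 2.3-fold as a bound. Hoxa11, which with Hoxd11 shapes the forearm and the kidney, read 32.2 and 30.7 in wild type, 178 and 292 in Eed-/-, 47.2 and 41.7 in Ezh2-/-, and 22.8 and 30.6 in the Jarid2-labelled arrays. Its difference was 2.37 (SE 0.20, limma adjusted p = 0.0002), at least 1.95-fold, again with no overlap between Eed-/- and any other group. Hoxa9, a regulator of blood stem cells, was read by 1455626_at at 61.8 and 53.1 in wild type, 168 and 340.0 in Eed-/-, 41.05 and 43.1 in Ezh2-/-, and 41.3 and 41.0 in the Jarid2-labelled arrays. The difference was 1.80 (SE 0.25, limma adjusted p = 0.0021), at least 2.04-fold, and the Eed-/- arrays differed from each other more than the other 6 did.

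Hoxa3, needed for the thymus and the parathyroid, was the only riser in Hoxa outside that run. Its probe set 1427433_s_at read 46.8 and 47.3 in wild type, 123 and 141 in Eed-/-, 66.1 and 82.2 in Ezh2-/-, and 31.5 and 41.6 in the Jarid2-labelled arrays. The difference in Eed-/- cells was 1.23 (SE 0.14, limma adjusted p = 0.00097), or 1.13-fold as a bound. This probe set was not detected in Eed-/- cells, since replicate 1 read below the highest control of its array, 135.27. The suffix s_at marks a probe set that can match more than one transcript, so part of its signal may come from another gene.

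Other Hoxa genes had no call in Eed-/- cells. Hoxa5, a regulator of lung growth, read 127 and 138 in wild type, 141 and 149 in Eed-/-, 141 and 129 in Ezh2-/-, and 113 and 106 in the Jarid2-labelled arrays. Hoxa7, which acts in the thoracic region, read 381 and 379.5 in wild type, 353 and 329 in Eed-/-, 375 and 351 in Ezh2-/-, and 335.5 and 347 in the Jarid2-labelled arrays. The difference of Hoxa5 in Eed-/- cells was 0.12 (95% interval -0.11 to 0.35) and that of Hoxa7 was -0.15 (95% interval -0.36 to 0.06). Hoxa4, a gene of the neck region, was read by 1427354_at at 64.04 and 67.8 in wild type, 53.5 and 40.1 in Eed-/-, 33.8 and 32.3 in Ezh2-/-, and 42.1 and 35.5 in the Jarid2-labelled arrays, so all 6 mutant arrays were below both wild-type arrays.

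Of the Hoxb cluster, 9 of 10 probe sets had no call in Eed-/- cells. Hoxb2, which patterns the hindbrain, was the one that rose. It read 66.1 and 78.9 in wild type, 96.2 and 116 in Eed-/-, 67.6 and 74.6 in Ezh2-/-, and 74.7 and 61.7 in the Jarid2-labelled arrays, a difference of 0.47 (SE 0.14, limma adjusted p = 0.046). All 8 values lay within the range of the controls. Hoxb3 read 192.5 and 221 in wild type, 172 and 169 in Eed-/-, 189 and 185 in Ezh2-/-, and 180.4 and 193 in the Jarid2-labelled arrays. Hoxb9, a gene of the rib-bearing thorax, read 228 and 255 in wild type, 213 and 225 in Eed-/-, 205 and 229.6 in Ezh2-/-, and 211 and 204 in the Jarid2-labelled arrays. The differences of these 2 in Eed-/- cells were -0.25 (95% interval -0.48 to -0.03, limma adjusted p = 0.11) and -0.13 (95% interval -0.36 to 0.10), with Eed-/- arrays below wild type in both. Over the 10 Hoxb probe sets the Eed-/- difference ran from -0.31 to 0.47.

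Among the remaining Hoxb genes, Hoxb5, Hoxb6 and Hoxb13 had a call in another comparison. Hoxb5, a gene of the gut and the neural crest, read 139 and 130.2 in wild type, 108 and 109 in Eed-/-, 104 and 105 in Ezh2-/-, and 90.1 and 85.3 in the Jarid2-labelled arrays. Every mutant array was below both wild-type arrays. Hoxb6 read 40.03 and 36.25 in wild type, 37.9 and 45.1 in Eed-/-, 27.7 and 26.4 in Ezh2-/-, and 26.6 and 21.1 in the Jarid2-labelled arrays. Hoxb13, which acts in the prostate and the tail bud, read 98.5 and 104 in wild type, 116.5 and 135 in Eed-/-, 96.8 and 117 in Ezh2-/-, and 69.6 and 62.3 in the Jarid2-labelled arrays. The arrays labelled Jarid2-/- were the lowest 2 for Hoxb5, Hoxb13 and, together with Ezh2-/-, among the lowest 4 for Hoxb6.

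In Hoxc, 4 genes rose. Hoxc8, which patterns the thorax and the motor neurons of the forelimb, read 25.6 and 23.7 in wild type, 109.8 and 189 in Eed-/-, 29.7 and 18.7 in Ezh2-/-, and 17.7 and 13.9 in the Jarid2-labelled arrays. The difference was 1.98 (SE 0.23, limma adjusted p = 0.00092), at least 1.23-fold, although only 1 of its Eed-/- arrays read above 148, the highest control reading of all arrays. Hoxc6, a gene of the brachial and thoracic region, was read by 1427454_at at 52.2 and 46.2 in wild type, 125 and 276 in Eed-/-, 47.6 and 54.6 in Ezh2-/-, and 34.85 and 28.9 in the Jarid2-labelled arrays. Its difference was 1.64 (SE 0.28, limma adjusted p = 0.0052), or 1.58-fold as a bound, with the largest standard error of the 14. Neither Hoxc8 nor this Hoxc6 probe set was detected in Eed-/- cells, since replicate 1 read below the highest control of its array, 135.27. Hoxc13, required for hair and nails, read 92.5 and 134 in wild type, 228.5 and 310.5 in Eed-/-, 70.1 and 78.3 in Ezh2-/-, and 55.1 and 68.4 in the Jarid2-labelled arrays. Hoxc4, a gene of the neck region, read 124 and 142 in wild type, 192 and 288 in Eed-/-, 104 and 91.5 in Ezh2-/-, and 67.2 and 74.9 in the Jarid2-labelled arrays. The differences of these 2 in Eed-/- cells were 1.15 (SE 0.19, limma adjusted p = 0.0046) and 0.76 (SE 0.17, limma adjusted p = 0.017), and for both genes the order of groups was Eed-/- highest, then wild type, then Ezh2-/-, with the Jarid2-labelled arrays lowest. Hoxc9, a gene of the thoracic motor column, read 307 and 306 in wild type, 312 and 387 in Eed-/-, 285 and 253 in Ezh2-/-, and 294.5 and 236 in the Jarid2-labelled arrays, a difference in Eed-/- cells of 0.17 (95% interval -0.14 to 0.48).

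Hoxd had the highest share of risers. Hoxd9, a gene of the lumbar region, read 88.1 and 97.6 in wild type, 308 and 463 in Eed-/-, 84.1 and 68.4 in Ezh2-/-, and 76.5 and 76.3 in the Jarid2-labelled arrays. The difference was 1.86 (SE 0.17, limma adjusted p = 0.00031) and at least 3.23-fold, the largest bound of the 9 risers for which one could be set. Hoxd8, its neighbour in the cluster, read 66.3 and 55.1 in wild type, 192 and 279 in Eed-/-, 22.8 and 33.9 in Ezh2-/-, and 46.0 and 53.6 in the Jarid2-labelled arrays. Its difference was 1.70 (SE 0.19, limma adjusted p = 0.00076), at least 1.98-fold. Hoxd10, which specifies motor neurons of the hindlimb, read 77.7 and 93.9 in wild type, 190.5 and 220.5 in Eed-/-, 75.1 and 84.4 in Ezh2-/-, and 73.2 and 65.9 in the Jarid2-labelled arrays. Its difference was 1.12 (SE 0.13, limma adjusted p = 0.00079), at least 1.75-fold. These 3 neighbours were detected in Eed-/- cells and in no other group.

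The other 3 called Hoxd genes read below 148, the highest control reading of all arrays, on every array. Hoxd1 passed the highest control of the same array, 120.92, on Eed-/- replicate 2. Hoxd1, which acts in pain-sensing neurons, read 43.8 and 57.9 in wild type, 87.8 and 132 in Eed-/-, 26.2 and 38.0 in Ezh2-/-, and 23.5 and 33.5 in the Jarid2-labelled arrays, a difference in Eed-/- cells of 0.90 (SE 0.21, limma adjusted p = 0.02). Hoxd11 read 54.2 and 61.4 in wild type, 91.2 and 90.1 in Eed-/-, 56.3 and 62.0 in Ezh2-/-, and 47.5 and 70.25 in the Jarid2-labelled arrays, a difference of 0.53 (SE 0.15, limma adjusted p = 0.042). Hoxd12, a gene of the developing digits, went the other way. It read 57.4 and 62.8 in wild type, 39.5 and 37.7 in Eed-/-, 45.3 and 47.4 in Ezh2-/-, and 51.4 and 44.8 in the Jarid2-labelled arrays, and its Eed-/- difference was -0.48 (SE 0.12, limma adjusted p = 0.026).

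**Figure D2:**
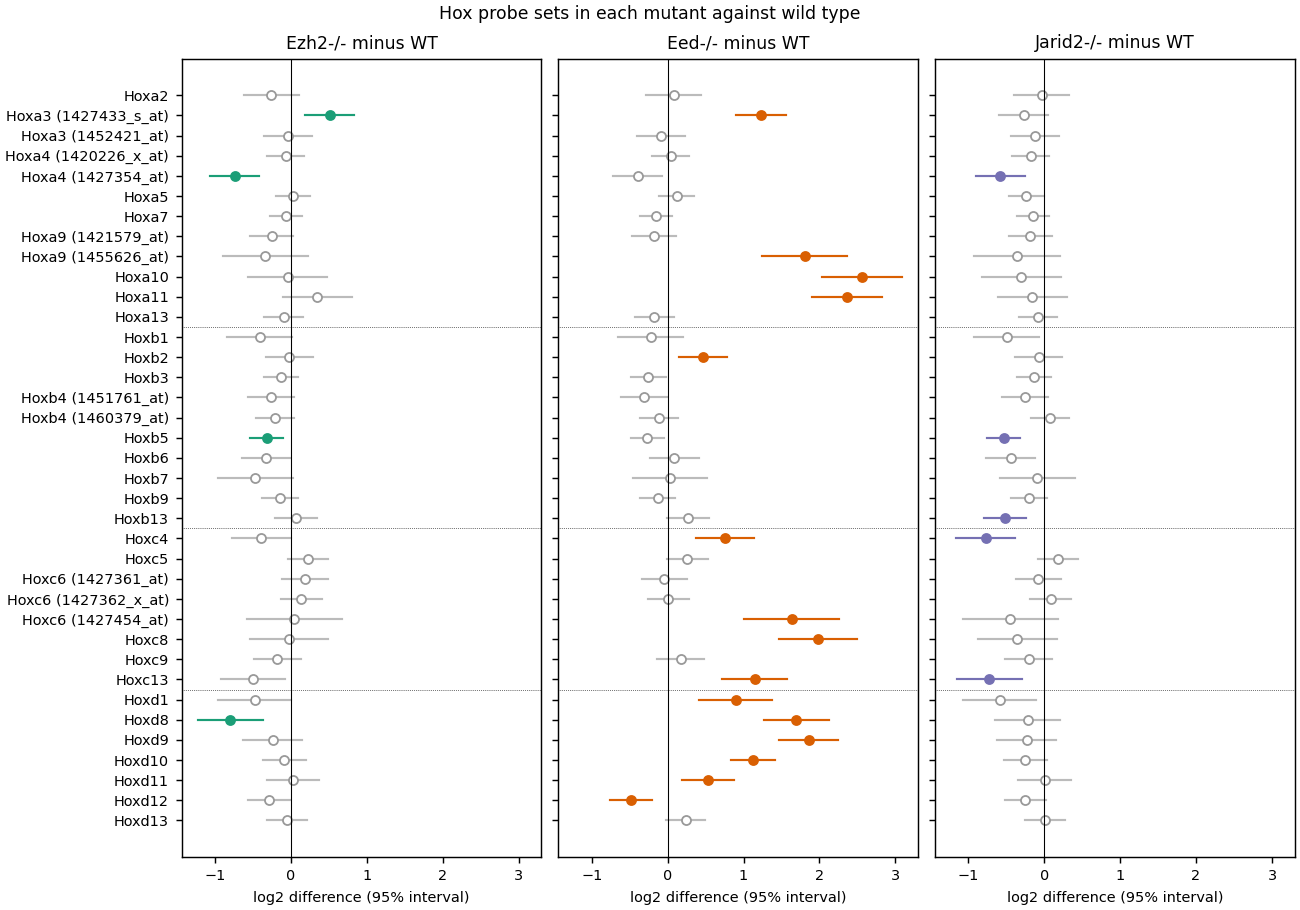
Difference from wild type on the log2(signal + 16) scale for the 37 Hox probe sets in each mutant, with 95% limma intervals, filled where the adjusted p is under 0.05 and grouped by cluster between dotted lines. Eed-/- has 14 filled points to the right of 0 and 1 to the left, Ezh2-/- has 1 and 3, and the Jarid2-labelled arrays have 0 and 5.

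By paralog number, both measured probe sets of group 8 (Hoxc8, Hoxd8), of group 10 (Hoxa10, Hoxd10) and of group 11 (Hoxa11, Hoxd11) rose in Eed-/- cells. Of group 9, 2 of 5 rose (Hoxa9, Hoxd9). Groups 1, 2, 3, 4, 6 and 13 had 1 riser each, among 2, 2, 3, 5, 4 and 4 probe sets, and groups 5 and 7 had none among 3 and 2. Group 12 held only Hoxd12, which fell. The paralogs that rose belonged to different clusters, and within a paralog group a member of Hoxb rose only in group 2.

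Where several probe sets read a gene, they did not always give the same answer. For Hoxa3 the second probe set, 1452421_at, read 342 and 413 in wild type, 343 and 362 in Eed-/-, 364 and 367 in Ezh2-/-, and 301 and 392 in the Jarid2-labelled arrays. For Hoxa9 the second, 1421579_at, read 278 and 305 in wild type, 228 and 285 in Eed-/-, 259 and 226 in Ezh2-/-, and 246 and 263 in the Jarid2-labelled arrays. Neither was called: their Eed-/- differences were -0.09 (95% interval -0.40 to 0.22) and -0.18 (95% interval -0.46 to 0.10). For Hoxc6, 1427361_at read 322 and 379.5 in wild type, 382 and 299.7 in Eed-/-, 417.5 and 381 in Ezh2-/-, and 334 and 326 in the Jarid2-labelled arrays. Another Hoxc6 probe set, 1427362_x_at, read 350.5 and 369 in wild type, 377 and 346 in Eed-/-, 400.3 and 394 in Ezh2-/-, and 428 and 341 in the Jarid2-labelled arrays. Both had intervals around 0 in Eed-/- cells, from -0.34 to 0.26 and from -0.27 to 0.28. In each of these genes the probe sets without a call were detected in wild type and the one that rose was not.

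Hoxb4, known for its use in expanding blood stem cells, had 2 probe sets, both without a call. The first, 1451761_at, read 176 and 212 in wild type, 144 and 162 in Eed-/-, 168 and 149 in Ezh2-/-, and 144 and 177.5 in the Jarid2-labelled arrays. The second, 1460379_at, read 258 and 254 in wild type, 231 and 238 in Eed-/-, 225 and 213 in Ezh2-/-, and 244.5 and 300.2 in the Jarid2-labelled arrays. All 6 comparisons left both without a call. When each of the 31 genes was read by its brightest probe set alone, 11 rose and 1 fell in Eed-/- cells, and when its probe sets were averaged, 14 rose and 1 fell. The calls of Hoxa3, Hoxa9 and Hoxc6 thus rest on 1 probe set each. Those of Hoxa4 in Ezh2-/- and the Jarid2-labelled arrays do too. Its other probe set, 1420226_x_at, differed from wild type there by -0.07 and -0.18, without a call.

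**Figure D3:**
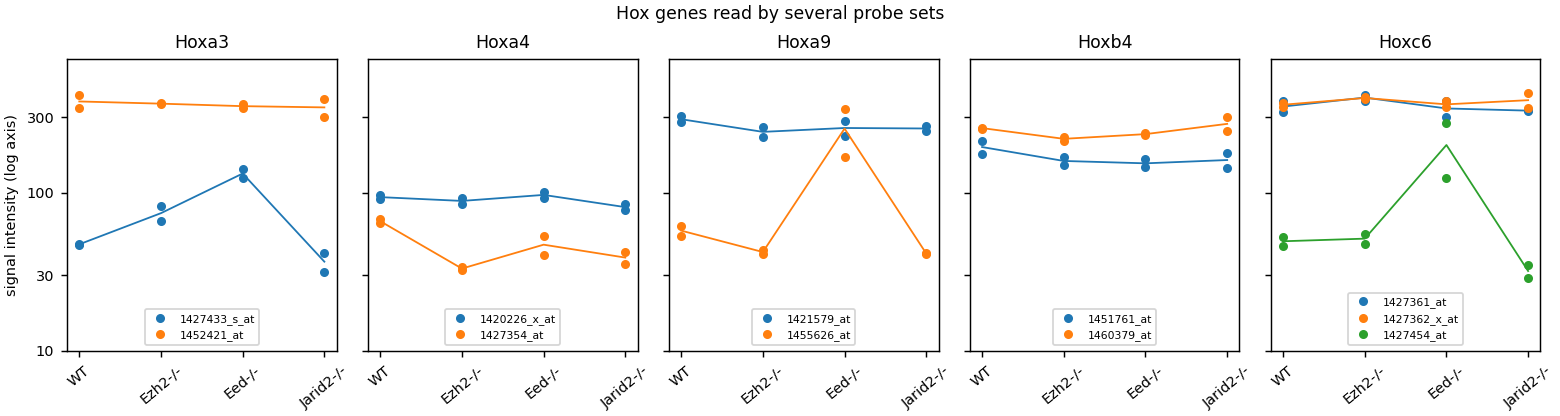
Signal intensity (log axis) on each array of the 5 Hox genes read by more than 1 probe set, with lines through the group means. For Hoxa3, Hoxa9 and Hoxc6, 1 probe set climbs in Eed-/- while its partners have no call, and both of Hoxb4 have none.

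The remaining 7 probe sets were Hoxa2, Hoxa4 (1420226_x_at), Hoxa13, Hoxb1, Hoxb7, Hoxc5 and Hoxd13. They read between 16.8 and 109 on all 8 arrays, were above the controls in no group and were called in no comparison. Their Eed-/- differences from wild type ran from -0.22 to 0.26.

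The 2 Eed-/- arrays differed in how far the Hox genes rose. Replicate 2 read above replicate 1 for 13 of the 14 risers, by a median of 0.53 on the log2 scale, with a range from -0.02 to 1.05. For the other 23 Hox probe sets this median was 0.04 and for all probe sets 0.0. The same 14 probe sets differed between replicates 2 and 1 by a median of 0.13 in wild type, 0.11 in Ezh2-/- and 0.15 in the Jarid2-labelled arrays. Summed signals of marker lists moved between the 2 Eed-/- arrays too. The 25 fibroblast markers summed to 19194 in replicate 1 and 25917 in replicate 2, and the 12 trophectoderm markers to 13092 and 25072. The 16 neural and spinal cord markers summed to 9273 and 9276, the 20 streak and mesoderm markers to 6826 and 6771, and the 21 pluripotency markers to 203567 and 206164. The part of any of these in the Hox values was not tested. In wild type the fibroblast sum was 33732 to 36309 and the trophectoderm sum 22105 to 29549.

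Of the 14 risers, 10 kept their call without any 1 of the 8 arrays. Without wild-type replicate 1 or Eed-/- replicate 2 the count of risers was 10. The call of Hoxd1 ended without wild-type replicate 1 (0.74, limma adjusted p = 0.081) and without Eed-/- replicate 2 (0.64, limma adjusted p = 0.13). That of Hoxc4 ended without the same arrays (0.67, limma adjusted p = 0.061, and 0.49, limma adjusted p = 0.083). Hoxb2 and Hoxd11 lost their calls without any 1 of the wild-type, Ezh2-/- or Eed-/- arrays, with differences from 0.35 to 0.58 and from 0.46 to 0.60. Hoxd12 lost its call without any 1 of the wild-type or Eed-/- arrays, with differences from -0.53 to -0.43.

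Cells without Ezh2 had few Hox calls. Compared with wild type, 1 Hox probe set was higher and 3 were lower in Ezh2-/- cells, which is 2.7% and 8.11%, where 9.41% of all probe sets were higher and 17.2% lower. The riser was Hoxa3 (1427433_s_at), by 0.51 (SE 0.14, limma adjusted p = 0.029), and its 2 Ezh2-/- arrays lay between wild type and Eed-/-. Hoxd8 fell by 0.80 on the log2 scale (SE 0.19, limma adjusted p = 0.014), Hoxa4 (1427354_at) fell by 0.74 (SE 0.14, limma adjusted p = 0.0055) and Hoxb5 fell by 0.32 (SE 0.10, limma adjusted p = 0.038). Hoxd8 thus read lower in Ezh2-/- and higher in Eed-/- cells than in wild type, but its wild-type and Ezh2-/- readings were all below the highest control. The same held for Hoxa4 (1427354_at) and Hoxa3 (1427433_s_at), so no bound could be set for these differences. The median difference over the 37 was -0.13, and over all probe sets -0.07. Of the 14 probe sets that rose in Eed-/- cells, 12 had no call here, and no upper end of their 95% intervals passed 0.83.

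The Ezh2-/- calls other than that of Hoxa4 (1427354_at), whose other probe set had no call, ended in some fits without 1 array. A fit with fewer arrays also has less power, and the difference of Hoxb5 stayed between -0.36 and -0.28. Hoxa3 lost its call without wild-type replicate 1 (0.50, limma adjusted p = 0.081), wild-type replicate 2 (0.52, limma adjusted p = 0.093) or Ezh2-/- replicate 2 (0.38, limma adjusted p = 0.19). Hoxd8 lost it without wild-type replicate 1 (-0.69, limma adjusted p = 0.06) or Ezh2-/- replicate 1 (-0.62, limma adjusted p = 0.11), and Hoxb5 without any 1 of the wild-type, Ezh2-/- or Eed-/- arrays, with adjusted p from 0.054 to 0.16 in limma. Scaling all arrays to the same quantiles turned the split of 1 higher and 3 lower into 2 and 2.

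In the Jarid2-labelled arrays, 0 Hox probe sets were higher and 5 were lower than in wild type by limma, and 0 were higher at an unadjusted p under 0.05. Of all probe sets 6.08% were higher and 13.7% lower, so the 13.5% of Hox probe sets that were lower lay near the background. Hoxc4 fell by 0.77 on the log2 scale (SE 0.17, limma adjusted p = 0.013), Hoxc13 fell by 0.72 (SE 0.19, limma adjusted p = 0.026), Hoxa4 (1427354_at) fell by 0.58 (SE 0.14, limma adjusted p = 0.021), Hoxb5 fell by 0.54 (SE 0.10, limma adjusted p = 0.0057) and Hoxb13 fell by 0.52 (SE 0.12, limma adjusted p = 0.019). In the Jarid2-labelled arrays all 5 read below the highest control, and no bound could be set for their falls. Hoxc4 and Hoxc13 were among the genes that rose in Eed-/- cells. All 12 Hoxa probe sets had a negative difference, of which 1 passed the test. No share of negative differences was taken over all probe sets, and values were not normalized between arrays, so these signs alone do not set Hoxa apart. The median was -0.22 over the 37 and -0.07 over all probe sets. For the 14 risers of Eed-/- cells no upper end of the 95% interval passed 0.35.

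Only Hoxb5 kept its Jarid2-/- call without any 1 array. Without wild-type replicate 2 it was the single call left. Hoxb13 lost its call without either wild-type array (-0.55, limma adjusted p = 0.051, and -0.48, limma adjusted p = 0.071) or without Jarid2-/- replicate 2 (-0.45, limma adjusted p = 0.095). Hoxa4 lost it without the same 3 arrays (-0.62, limma adjusted p = 0.065, then -0.55, limma adjusted p = 0.084, and -0.50, limma adjusted p = 0.11). Hoxc4 and Hoxc13 lost theirs without wild-type replicate 2 (-0.68, limma adjusted p = 0.056, and -0.49, limma adjusted p = 0.12) or Jarid2-/- replicate 1 (-0.71, limma adjusted p = 0.062, and -0.60, limma adjusted p = 0.12).

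Setting the mutants against each other tests the difference itself, and these comparisons share their Eed-/- arrays with the comparison that named the risers. Against Eed-/- cells, 13 Hox probe sets were lower and 0 higher in Ezh2-/- cells, or 35.1% lower where 11.1% of all probe sets were lower and 5.68% higher. In the Jarid2-labelled arrays, 17 were lower and 0 higher than in Eed-/- cells, or 45.9% lower where 9.9% of all were lower and 4.99% higher. In both, 0 Hox probe sets were higher at an unadjusted p under 0.05 in limma. Of the 14 risers, 13 were lower in Ezh2-/- than in Eed-/- cells, and the other was Hoxd11, while all 14 were lower in the Jarid2-labelled arrays. Hoxa10 differed most in both, by -2.60 in Ezh2-/- (SE 0.23, limma adjusted p = 0.00014) and by -2.86 in the Jarid2-labelled arrays (SE 0.23, limma adjusted p = 0.00011), followed in Ezh2-/- by Hoxd8 at -2.49 (SE 0.19, limma adjusted p = 5.7e-05). Besides the risers, Hoxb13 (-0.79, limma adjusted p = 0.0033), Hoxb6 (-0.53, limma adjusted p = 0.037) and Hoxa5 (-0.36, limma adjusted p = 0.046) were lower in the Jarid2-labelled arrays than in Eed-/- cells.

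Between Ezh2-/- cells and the Jarid2-labelled arrays, few Hox genes differed. The latter were lower for Hoxa3 (1427433_s_at), by -0.78 (SE 0.14, limma adjusted p = 0.0071), and for Hoxb13, by -0.58 (SE 0.12, limma adjusted p = 0.014). None was higher in limma, and 2 were higher at an unadjusted p under 0.05. Of all probe sets 7.77% were higher and 7.28% lower in this comparison, where 5.41% of the Hox probe sets were lower. Both calls ended without Ezh2-/- replicate 2 (Hoxa3 at -0.65, limma adjusted p = 0.075, and Hoxb13 at -0.46, limma adjusted p = 0.12), and that of Hoxb13 also without Jarid2-/- replicate 2 (-0.52, limma adjusted p = 0.093). Against Eed-/- cells, Hoxa3 and Hoxb2 lost their Ezh2-/- calls without Ezh2-/- replicate 1 (-0.59, limma adjusted p = 0.083, and -0.43, limma adjusted p = 0.22) or Eed-/- replicate 2 (-0.63, limma adjusted p = 0.083, and -0.37, limma adjusted p = 0.25). Hoxb2 lost this call also without Ezh2-/- replicate 2 (-0.54, limma adjusted p = 0.13) or Eed-/- replicate 1 (-0.60, limma adjusted p = 0.051). For the Jarid2-labelled arrays against Eed-/-, the calls of Hoxa5 (-0.40 to -0.32) and Hoxb6 (-0.63 to -0.43) ended without any 1 of the Ezh2-/-, Eed-/- or Jarid2-labelled arrays. That of Hoxb2 ended without either Ezh2-/- array, Eed-/- replicate 2 or Jarid2-/- replicate 2 (-0.54 to -0.42), and that of Hoxd11 without any 1 array other than Jarid2-/- replicate 2. For Hoxd11 the value moved from -0.53 to -0.31 without Jarid2-/- replicate 1 (limma adjusted p = 0.23).

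**Figure D4:**
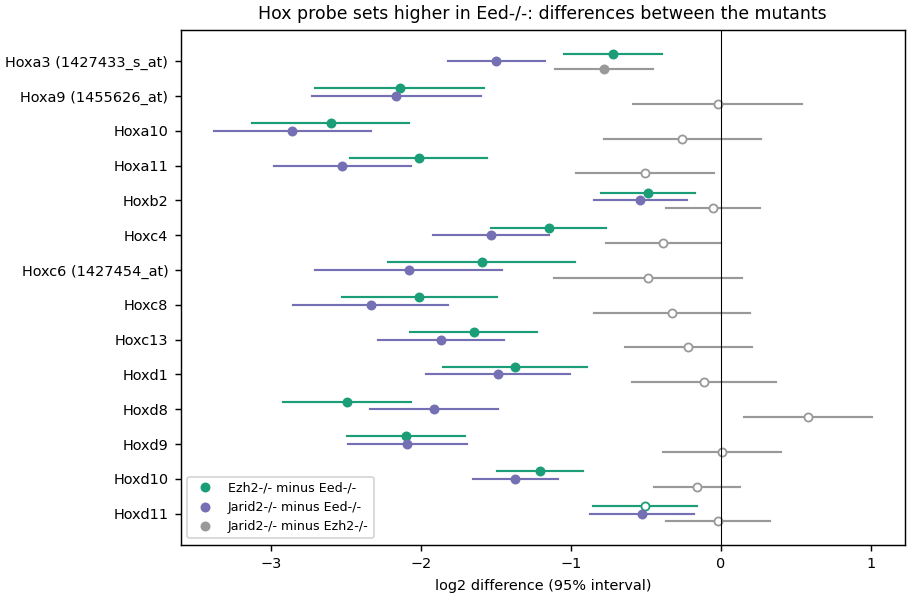
Differences between mutants on the log2(signal + 16) scale, with 95% limma intervals, for the 14 probe sets higher in Eed-/- than in wild-type cells, filled where the adjusted p is under 0.05. Of these, 13 lie below 0 with a call in Ezh2-/- and 14 in the Jarid2-labelled arrays, each against Eed-/-. The grey points that set Jarid2-/- against Ezh2-/- run from -0.78 to 0.58, 12 of the 14 below 0, with 1 call.

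Hox proteins bind DNA together with cofactors of the TALE class, the Pbx and Meis homeodomain proteins. Of 8 measured cofactors, 3 rose in Eed-/- cells and the other 5 had no call, where 7.7% of all probe sets were higher and 10.9% lower. Meis1 had a mean of 80.8 ± 8.55 in wild type and 398 ± 0.509 in Eed-/- (SD, n = 2 each), a difference of 2.10 (SE 0.14, limma adjusted p = 4.9e-05). Meis2 rose by 1.83 and Pbx2 by 0.48. In Ezh2-/- cells Meis1 and Meis2 were higher too, by 2.85 (SE 0.14, limma adjusted p = 2.7e-06) and 1.45 (SE 0.16, limma adjusted p = 0.00035), while Meis3 and Pbx3 were lower. In the Jarid2-labelled arrays, Pbx2 rose by 0.36, Pbx3 fell by 0.58 on the log2 scale, and Meis1 differed by 0.06.

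Trithorax proteins and retinoic acid are known activators of Hox genes. Of 15 measured trithorax proteins and parts of the retinoic acid pathway, its breakdown included, 1 was higher and 3 were lower in Eed-/- cells. The median difference was -0.08. Of all probe sets 7.7% were higher and 10.9% lower in these cells. The riser was Crabp2, which carries retinoic acid in the cell, by 1.12 (limma adjusted p = 0.0011). Cyp26a1, which breaks retinoic acid down, fell by 1.06 on the log2 scale (limma adjusted p = 0.0039). Also lower were Rara, by -0.54 (limma adjusted p = 0.0089), and Ash2l, by -0.33 (limma adjusted p = 0.0083). Cyp26a1 also fell by 1.54 in Ezh2-/- and fell by 1.5 in the Jarid2-labelled arrays. Aldh1a2, which makes retinoic acid, fell by 1.06 in Ezh2-/- (limma adjusted p = 0.00023) and fell by 0.98 in the Jarid2-labelled arrays (limma adjusted p = 0.00057). The part of these genes in the Hox values was not tested.

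Among 9 ParaHox and related homeobox genes, 2 rose in Eed-/- cells, Evx1 by 1.14 (limma adjusted p = 0.026) and Gsx1 by 0.57 (limma adjusted p = 0.04). Evx1 lies next to the Hoxa cluster, and its wild-type arrays spread widely, at 92.1 ± 57.7 (SD, n = 2). Of 30 homeobox regulators outside the clusters, 7 rose in Eed-/- cells and the other 23 had no call. Both counts stand against 7.7% of all probe sets higher and 10.9% lower. Lhx2, a factor of the forebrain and eye, rose by 1.95 (SE 0.13, limma adjusted p = 6.3e-05), and Six2, which keeps kidney progenitors, by 1.47 (SE 0.16, limma adjusted p = 0.00077). In Ezh2-/- cells 4 of the 30 were higher and 3 lower, where 9.41% of all probe sets were higher and 17.2% lower. In the Jarid2-labelled arrays 2 were higher and 4 lower, where the shares over all probe sets were 6.08% and 13.7%, so these counts lay near the background.

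Genes beside the clusters were read in the same way. Their counts in Eed-/- cells stand against 7.7% of all probe sets higher and 10.9% lower, and each flank holds few genes. Beside Hoxa, 3 of 8 measured neighbours rose in Eed-/- cells: Evx1, Snx10 by 0.45 (SE 0.11, limma adjusted p = 0.022) and Tax1bp1 by 0.35 (SE 0.08, limma adjusted p = 0.015). Beside Hoxb, 1 of 9 rose, the autophagy receptor Calcoco2, by 1.57 (SE 0.26, limma adjusted p = 0.0045). Beside Hoxd, 1 of 6 rose, Mtx2, a mitochondrial protein encoded next to the cluster, by 0.42 (SE 0.07, limma adjusted p = 0.0052). Beside Hoxc, 2 of 8 were lower, Gpr84 by -0.47 and Nfe2 by -0.46.

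In the arrays labelled Jarid2-/-, 4 of 8 neighbours of Hoxa were lower and the other 4 had no call, where 13.7% of all probe sets were lower. Skap2, an adaptor protein of immune cells, fell by 0.97 on the log2 scale (SE 0.10, limma adjusted p = 0.00033) and Tax1bp1 fell by 0.75 (SE 0.08, limma adjusted p = 0.00036). Snx10 fell by 0.42 and Hnrnpa2b1 fell by 0.14. The median of the 8 was -0.35, beside -0.18 for the 12 Hoxa probe sets and -0.07 for all probe sets. Beside Hoxc, 4 of 8 were lower as well, Zfp385a by -0.57, Nfe2 by -0.54, Gpr84 by -0.43 and Itga5 by -0.36, and Hnrnpa1 was higher by 0.27, with a median of -0.28. Ezh2, on chromosome 6 like Hoxa, was lower in these arrays too, by -0.66 (limma adjusted p = 0.0015). A link between them was not tested, and no share was taken over the genes of this chromosome.

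Counts of called markers stand against the shares over all probe sets. In Eed-/- cells 7.7% of these were higher and 10.9% lower than in wild type. The shares were 9.41% and 17.2% in Ezh2-/-, and 6.08% and 13.7% in the Jarid2-labelled arrays. Signals of fibroblast markers summed lower in every mutant. Of its 25 markers, 6 fell and 1 rose in Eed-/- cells, 14 fell in Ezh2-/- and 11 in the Jarid2-labelled arrays, with summed signals of 33732 to 36309 in wild type, 13236 to 13237 in Ezh2-/-, 15746 to 18193 in the Jarid2-labelled arrays and, between them and wild type, 19194 to 25917 in Eed-/-. At or below the highest control on both arrays were 4 of the 25 in wild type, 11 in Ezh2-/-, 11 in Eed-/- and 15 in the Jarid2-labelled arrays. Col1a1, the main collagen of fibroblasts, fell by 2.67 in Eed-/- cells (limma adjusted p = 0.0003). Its mean there was 66.4, within the range of the controls. The marker that rose in Eed-/- cells was Twist1, by 0.96 (limma adjusted p = 0.00072). The part of any of these marker lists in the Hox values was not tested. Of 12 trophectoderm markers, 2 rose and 1 fell in Eed-/- cells, and of 16 neural and spinal cord markers, a tissue with strong Hox activity, 3 rose. At or below the highest control on both arrays were 2 of the 12 trophectoderm markers in Eed-/- and 1 in wild type, and 5 of the 16 neural markers in Eed-/- and 8 in wild type. The neural sum was 4116 to 4597 in wild type, 5498 to 5652 in Ezh2-/-, 9273 to 9276 in Eed-/- and 9602 to 10440 in the Jarid2-labelled arrays. Olig1 and Olig2, factors of the oligodendrocyte lineage, carried the higher sums. Without these 2 the other 14 summed to 3986 to 4509 in wild type, 2796 to 3045 in Ezh2-/-, 3878 to 4145 in Eed-/- and 3562 to 3687 in the Jarid2-labelled arrays. Of 20 endoderm markers 9 rose and 2 fell in Eed-/- cells, and of 20 streak and mesoderm markers 5 rose and 2 fell.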

How the data were processed

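Each value is an intensity, deposited by the authors for a probe set without a log. The sources used here do not give how these were normalized. Another table has 12 dChip columns whose names match no sample label, so it was left out, and detection calls were not used here. Symbols came from GEO's platform annotation: 20380 probe sets had 1 symbol, 691 several and 1555 none.

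The 64 controls were left out. Values under 1 were set to 1, 16 was added and log2 taken, with no normalization between arrays. limma 3.58.1 in R 4.3.3 (lmFit, contrasts, eBayes with an intensity trend) fitted 22626 probe sets on all 8 arrays with a mean per genotype (4 residual and 5.02 prior degrees of freedom). Tests were two-sided, with p-values adjusted by Benjamini-Hochberg over all probe sets of a comparison and calls at an adjusted p under 0.05. The number of arrays limits the precision.

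The members, marker lists and other gene lists were chosen with earlier results of these data known. Values on every array are given for members called in any comparison or above the controls in any group, and the others by range. From each list, up to 4 genes with the smallest p per comparison were eligible to be named, and all flanking genes. A gene with several probe sets is represented on a list by the brightest. Replicate numbers were not used as pairs, since the labels do not tie them to a culture or day.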

Additional observations from a re-analysis of the deposited data

Results flagged for a closer look

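A probe set outside the members, 1452493_s_at, carries several Hox symbols and is therefore not named. It was higher in Eed-/- than in wild-type cells by 0.88 on the log2 scale (SE 0.25, limma adjusted p = 0.041), with 12.5 and 24.7 in wild type and 38.5 and 56.5 in Eed-/-. All values were below the highest control of 148. It drew attention because it is a signal in data that the comparisons above do not use.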

How the results depend on the processing

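Each comparison was repeated under 16 alternatives, 8 that leave out 1 array and 8 that change the processing, and no called difference changed sign. A filter that kept 16075 probe sets left 11 Hox members, and then 0 were called in Ezh2-/-, 1 in Eed-/- and 0 in Jarid2-/- against wild type, 1 in Ezh2-/- and 1 in Jarid2-/- against Eed-/-, and 0 between Jarid2-/- and Ezh2-/-, since most members were not tested. Quantile normalization left 2 calls in Jarid2-/- against wild type, and the cause was not tested. Leaving out 1 array gave 10 to 15 calls for Eed-/-, 2 to 4 for Ezh2-/- and 1 to 5 for Jarid2-/- against wild type, 11 to 14 for Ezh2-/- and 13 to 16 for Jarid2-/- against Eed-/-, and 0 to 3 for Jarid2-/- against Ezh2-/-. With the replicate block, 15 Hox probe sets were called in Eed-/-, 6 in Ezh2-/- and 6 in Jarid2-/- against wild type, 14 in Ezh2-/- and 17 in Jarid2-/- against Eed-/-, and 3 in Jarid2-/- against Ezh2-/-, and the block ended no call. Same-numbered arrays deviated together with a correlation of 0.411 for Jarid2-/- with wild type, 0.244 for Jarid2-/- with Eed-/- and 0.008 to 0.05 for the other pairs of groups. Apart from the filter on dim probe sets, calls kept under every alternative were 10 of 14 higher and 0 of 1 lower in Eed-/-, 0 of 1 higher and 1 of 3 lower in Ezh2-/-, and 1 of 5 lower in Jarid2-/- against wild type, then 11 of 13 and 13 of 17 lower in Ezh2-/- and Jarid2-/- against Eed-/-, and 0 of 2 lower in Jarid2-/- against Ezh2-/-. Over all probe sets, equal array medians changed the split of higher and lower calls in Ezh2-/- against wild type from 2130 and 3882 to 2963 and 2759, and in Jarid2-/- from 1375 and 3110 to 2054 and 2228. The planned use of the dChip table and a filter on detection calls were not run. Most members read near the controls, which limits what can be said of their folds.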

Other observations

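Hoxa11os, the antisense transcript beside Hoxa11, has a probe set of its own that falls outside the members. It read 228 and 187 in wild type, and 199 and 203 in Eed-/-, where Hoxa11 itself rose. The difference in Eed-/- cells was -0.04 (SE 0.11, limma adjusted p = 0.84). It fell by 0.37 on the log2 scale (SE 0.11, limma adjusted p = 0.047), to 152 and 162 in the arrays labelled Jarid2-/-.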
